A study of Mus musculus with 6 samples.

Results

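The genes of the major histocompatibility complex (MHC, called H2 in the mouse) and their helpers were followed in RNA of the whole mouse retina on postnatal day 17. Members were taken by symbol alone, as every gene whose symbol begins with H2- together with B2m, Tap1, Tap2, Tapbp, Cd74, Ciita, Nlrc5, Psmb8, Psmb9 and Psmb10, which gave 46 of the 22173 genes listed. They comprised 2 classical class I heavy chains, 24 non-classical class I genes, 9 class II chains, the invariant chain gene Cd74, 7 genes of the class I light chain, peptide loading and peptide supply, 2 regulators, and H2-Ke6, which lies in the H2 region but encodes a dehydrogenase. All 6 libraries were from wild-type C57BL/6J pups. The 3 Control libraries came from pups in room air from day 7 to day 17, and the 3 libraries of oxygen-induced retinopathy (OIR) came from pups given 75% oxygen from day 7 to day 12 and room air from then until day 17. No label states that libraries of 1 group are separate animals, so p-values measure the spread between these samples, which may be technical. In the OIR model, high oxygen makes retinal capillaries regress, and abnormal vessels grow after the return to room air.

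Class I molecules show peptides from inside the cell to CD8 T cells and to natural killer cells. Each is a heavy chain paired with beta-2-microglobulin, the product of B2m. Its peptides are cut by the proteasome, whose catalytic subunits can be replaced by the interferon-inducible subunits encoded by Psmb8, Psmb9 and Psmb10. The TAP1 and TAP2 proteins carry the peptides into the endoplasmic reticulum, where tapasin, from Tapbp, helps to load them. Class II molecules are dimers of an alpha and a beta chain, are guarded by the invariant chain CD74, and show peptides from endosomes to CD4 T cells. They are made mainly by dendritic cells, B cells, macrophages and activated microglia. NLRC5 is a transcriptional coactivator of class I genes and CIITA of class II genes, and both act on promoters that carry a common set of sequence boxes. The healthy retina is known for low MHC expression.

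Values are in RPKM, the reads of a gene scaled to its length in kilobases and to the depth of the library. Depth was 35615501 to 38025623 reads per library, recovered from the steps of the values. Genes of the eye lens took 6.29% of reads in Control 3 and 0.551% in OIR 2, against 0.0147% to 0.0577% in the other 4 libraries. The 12 retinal markers that served as a tissue check were all listed above 0, with a summed level of 13600 to 16440 RPKM in Control and 16210 to 16877 RPKM in OIR. A gene was tested if it reached 1 RPKM in at least 3 libraries, which 12112 genes did. The test was limma on log2(RPKM + 1), with p-values adjusted over all 12112 genes and a threshold of 0.05. It called 18.8% of the tested genes, 11.6% higher in OIR and 7.22% lower. Fold changes on this scale understate the change of low genes, so the ratio of the plain group means is given beside them. In whole tissue, fewer cells of a type and less RNA per cell cannot be told apart.

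Promoters of some members are shown first. Among them are H2-Q10, the class I gene that was lower in OIR, and H2-Aa, which was too low to test. Sequences were matched by symbol to the RefSeq promoter table (GRCm38.p6), which held 38 of the 46 members. The build used by the study is not given in the sources used here. Windows were 280 bases long, from 250 bases before the annotated start into the first 30 bases after it. Both strands were searched for 4 short motifs, whose letters were chosen after reading some of these promoters. They were GGGANT followed by any 2 bases and CC, a form of the NF-kappaB site, AANNGAAA, the core bound by interferon regulatory factors, TGNTGACG, a form of the X2 box that resembles a cyclic AMP element, and ATTGG, the reverse of the CCAAT box known as the Y box. Matches are in capitals, and matches that overlap run together. The windows are H2-K1 at chr17:34000318-34000597 (- strand), H2-D1 at chr17:35262844-35263123 (+ strand), H2-Q4 at chr17:35379367-35379646 (+ strand), B2m at chr2:122147437-122147716 (+ strand), H2-Aa at chr17:34287794-34288073 (- strand) and H2-Q10 at chr17:35469839-35470118 (+ strand).
H2-K1: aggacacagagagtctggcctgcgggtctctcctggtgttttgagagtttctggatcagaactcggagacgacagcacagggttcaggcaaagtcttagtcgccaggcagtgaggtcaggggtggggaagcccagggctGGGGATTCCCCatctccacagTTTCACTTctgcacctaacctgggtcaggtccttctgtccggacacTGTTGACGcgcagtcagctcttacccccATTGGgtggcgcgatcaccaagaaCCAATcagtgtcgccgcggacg
H2-D1: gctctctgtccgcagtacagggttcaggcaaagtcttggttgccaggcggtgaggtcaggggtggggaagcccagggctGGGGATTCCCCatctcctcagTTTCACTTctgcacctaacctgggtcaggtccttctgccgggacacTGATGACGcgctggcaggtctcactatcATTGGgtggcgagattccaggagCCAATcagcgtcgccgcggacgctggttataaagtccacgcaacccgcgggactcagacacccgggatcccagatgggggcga
H2-Q4: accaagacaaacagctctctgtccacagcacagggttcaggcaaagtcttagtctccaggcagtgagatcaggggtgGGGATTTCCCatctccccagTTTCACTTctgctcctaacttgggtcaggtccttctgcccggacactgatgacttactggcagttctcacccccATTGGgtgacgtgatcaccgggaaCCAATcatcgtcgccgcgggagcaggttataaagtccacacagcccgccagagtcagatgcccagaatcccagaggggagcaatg
B2m: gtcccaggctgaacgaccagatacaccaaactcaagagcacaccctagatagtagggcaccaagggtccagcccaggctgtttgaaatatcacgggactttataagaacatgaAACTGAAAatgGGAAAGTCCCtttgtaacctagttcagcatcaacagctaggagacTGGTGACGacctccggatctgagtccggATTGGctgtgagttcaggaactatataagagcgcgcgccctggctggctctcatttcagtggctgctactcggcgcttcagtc
H2-Aa: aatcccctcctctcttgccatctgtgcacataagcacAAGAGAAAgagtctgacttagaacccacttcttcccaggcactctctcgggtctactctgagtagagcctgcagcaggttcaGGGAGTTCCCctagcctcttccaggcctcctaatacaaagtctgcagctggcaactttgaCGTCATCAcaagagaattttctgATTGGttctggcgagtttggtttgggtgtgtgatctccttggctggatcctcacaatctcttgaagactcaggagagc
H2-Q10: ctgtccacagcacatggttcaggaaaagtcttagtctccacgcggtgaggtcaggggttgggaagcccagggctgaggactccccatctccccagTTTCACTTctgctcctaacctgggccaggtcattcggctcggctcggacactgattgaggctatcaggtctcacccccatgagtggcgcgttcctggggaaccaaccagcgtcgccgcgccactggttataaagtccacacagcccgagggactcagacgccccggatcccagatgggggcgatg

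H2-K1, H2-D1 and B2m held all 4 motifs. H2-Q4 held the NF-kappaB, interferon factor and CCAAT motifs and had no match to the X2 form, as did H2-T22, which did not pass the test. H2-Q10 kept the interferon factor motif, in the same letters as H2-K1, H2-D1 and H2-Q4, and had no match to the other 3. The class II alpha chain gene H2-Aa also held all 4. Among 27025 promoters of the same length, 3.84% held the NF-kappaB form, 23.3% the interferon factor core, 2.18% the X2 form and 36.6% the CCAAT box. Only 6 of the 27025 held all 4, and all 6 were members: the 4 named above, H2-M3 and H2-Q7. Since the letters were chosen on promoters of this set, that count describes the windows and supports nothing. A match is a string of letters and not a shown binding site. Whether the motifs go with the calls of OIR against Control was not tested.

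Of the 23 class I heavy chain genes with a promoter in the table, 12 had reads in these libraries and 11 were listed at 0 in all 6. The NF-kappaB form was in 7 of the 12 and in 0 of the 11, and the X2 form in 4 of the 12 and in 0 of the 11. The interferon factor core was in 11 of the 12 and in 4 of the 11, and the CCAAT box in 10 of each. As the letters were chosen on promoters of this set, these counts also describe the windows and support nothing. Among 8 class II chain genes in the table, 7 held the CCAAT box, 3 the interferon factor core and 1, H2-Aa, the NF-kappaB or X2 form. Outside the heavy chains, B2m held all 4, Psmb8 and Psmb10 held none, and Tapbp and Tap1 held only the CCAAT box. The windows of Tap1 and Psmb9, which lie head to head, shared 275 bases. Promoters of Cd74, Ciita, Nlrc5, Tap2, H2-Ab1, H2-Q1, H2-Q9 and H2-T24 were not used here.

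Of the 46 members, 35 had reads in at least 1 library and 11 were at 0 in all 6. The 11 were class I genes of the M and T regions, H2-M1, H2-M2, H2-M9, H2-M11, the 6 listed H2-M10 genes and H2-T3. A count of 0 allows up to 3 reads per library at this depth. The test covered 16 members and left out 30. Of the 16, 10 were called higher in OIR, against 11.6% of all tested genes, 1 was called lower, against 7.22%, and 5 did not pass. The 16 had a median log2 fold change of 0.65 against 0.03 over all tested genes. All 10 higher members had every OIR value above every Control value, as 23.6% of tested genes did, and the lower member had them all below, as 15.0% did. H2-M3 passed the minimum through its OIR libraries alone, so it could hardly have entered the test without a difference. Tap1 reached the minimum in every OIR library but, of the Control libraries, in Control 3 only, so its entry also leaned on its OIR values. Of the 19 untested members with reads, 4 had all OIR values above all Control values, against 13.9% of untested genes with reads, and 0 had them all below, against 6.44%.

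**Figure D1:**
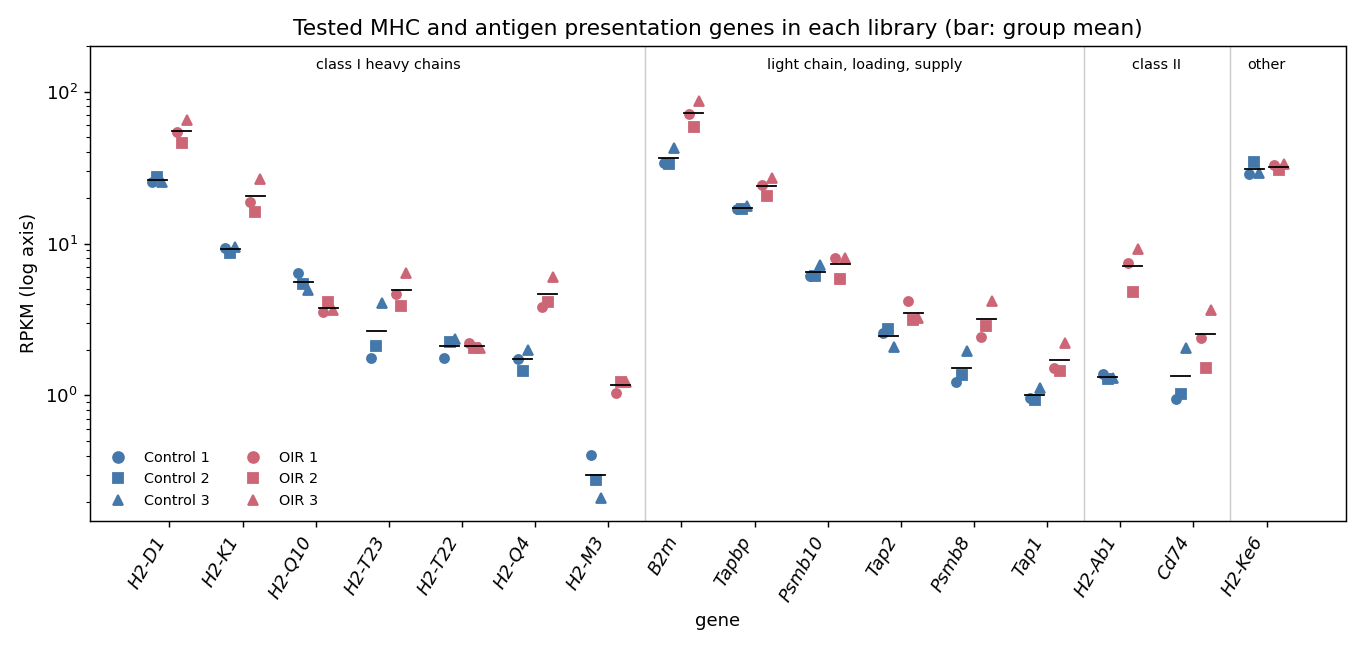
RPKM on a log axis of the 16 tested members in each library, with a bar at each group mean, Control in blue and OIR in red. H2-D1, H2-K1, H2-Q4, B2m, Tapbp and H2-Ab1 have all OIR points above all Control points, H2-Q10 has them below, and H2-T22 and H2-Ke6 overlap.

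The classical class I genes doubled in level. H2-D1 and H2-K1 encode the Db and Kb heavy chains that present peptides to CD8 T cells in this strain. H2-D1 was at 25.3, 27.4 and 25.5 RPKM in Control 1, 2 and 3, and at 54.6, 45.8 and 64.7 RPKM in OIR 1, 2 and 3. The Control values lay close together and every OIR value was above them. The ratio of the means was 2.11, for a log2 fold change of 1.04 ± 0.109 (SE, limma adjusted p 0.000543). H2-K1 was at 9.35, 8.61 and 9.49 RPKM in Control and at 18.9, 16.2 and 26.5 RPKM in OIR, a ratio of 2.24 with a log2 fold change of 1.06 ± 0.161 (SE, limma adjusted p 0.00699). The groups did not overlap, and OIR 3 was the highest and OIR 2 the lowest OIR library for both genes. H2-D1 stood at 2.86 ± 0.278 times the level of H2-K1 in Control and 2.72 ± 0.243 times in OIR (SD, n = 3 libraries each).

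Non-classical class I genes, whose products present restricted peptides or act on natural killer and innate T cells, did not move as 1 group. Of the 24, 13 had reads and 5 were tested, of which H2-Q4 and H2-M3 were higher, H2-Q10 was lower, and H2-T22 and H2-T23 did not pass. H2-Q4 was at 1.74, 1.44 and 2.0 RPKM in Control and at 3.80, 4.13 and 6.03 RPKM in OIR, a ratio of 2.69 with a log2 fold change of 1.04 ± 0.142 (SE, limma adjusted p 0.00207). H2-M3 encodes a chain that presents formylated peptides of bacteria and mitochondria. It was at 0.406, 0.278 and 0.212 RPKM in Control, from 11 to 22 reads, and at 1.04, 1.22 and 1.23 RPKM in OIR, a ratio of 3.89 (limma adjusted p 0.00111). The OIR values of H2-M3 were close together and well above all Control values.

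H2-Q10 went the other way. It encodes a secreted class I chain known from the liver and from serum. It was at 6.41, 5.46 and 4.96 RPKM in Control and at 3.55, 4.13 and 3.62 RPKM in OIR. No OIR library reached the lowest Control library, and the log2 fold change was -0.47 ± 0.0964 (SE, limma adjusted p 0.010). Without OIR 1 the adjusted p was 0.0511 and the log2 fold change -0.43. In Control, H2-Q10 was the third most abundant class I heavy chain per length after H2-D1 and H2-K1. Of the distinct 50-base stretches of H2-Q10 transcripts in GENCODE M21, 19.1% also occur in another gene, most often in H2-Q7 at 14.0%.

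H2-T23 encodes Qa-1, which shows leader peptides of other class I chains to natural killer cells. It was at 1.78, 2.13 and 4.05 RPKM in Control and at 4.62, 3.88 and 6.37 RPKM in OIR. Control 3 was above OIR 2, so the groups overlapped, and the gene did not pass (limma adjusted p 0.125). Without Control 3 the log2 fold change was 0.99 and the adjusted p 0.0157. H2-T22, a ligand of gamma-delta T cells, was at 1.77 to 2.34 RPKM in Control and 2.04 to 2.21 RPKM in OIR, a log2 fold change near 0 with a 95% interval from -0.21 to 0.20. Of the 50-base stretches of H2-T22, 53.5% also occur in another gene, mainly H2-T10, so its value is uncertain. For H2-Q4 that share was 36.4%, for H2-D1 12.8% and for H2-K1 9.63%, and how the authors' counting treated such reads is not given in the sources used here.

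The other 8 class I genes with reads were too low to test. H2-Q2 stood out among them, chosen after its values were seen. It was at 0.0661, 0.332 and 0.152 RPKM in Control, 41 reads in all, and at 1.25, 0.632 and 1.71 RPKM in OIR, 273 reads in all. With a minimum of 0.1 RPKM and a pseudocount of 0.1 its log2 fold change was 2.21 (limma adjusted p 0.0124). H2-Q7 was at 0.0525 to 0.146 RPKM in Control and at 0.440, 0.0178 and 0.839 RPKM in OIR, so OIR 2 lay below every Control library. The genes H2-M5, H2-Q1, H2-Q6, H2-Q9, H2-T24 and the pseudogene H2-T-ps overlapped between the groups, with at most 52 reads in any library.

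Summed over the 26 class I heavy chain genes, the level was 47.4, 48.4 and 49.99 RPKM in Control and 91.1, 78.8 and 114.0 RPKM in OIR, a ratio of 1.95. H2-K1 and H2-D1 made up 72.5% ± 2.31 of this sum in Control and 79.8% ± 0.991 in OIR (SD, n = 3 libraries each).

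The light chain was higher by a factor close to that of the summed heavy chains. B2m was at 34.0, 33.3 and 42.4 RPKM in Control and at 70.7, 58.2 and 86.6 RPKM in OIR, a ratio of 1.96 with a log2 fold change of 0.94 ± 0.157 (SE, limma adjusted p 0.0103). Without OIR 1 its adjusted p was 0.0590. The ratio of B2m to the summed heavy chains was 0.752 ± 0.0855 in Control and 0.758 ± 0.0188 in OIR (SD, n = 3 libraries each), so the means differed by less than the spread.

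Genes of peptide transport and loading were higher by smaller factors. Tapbp rose from 16.9, 16.9 and 17.8 RPKM in Control to 24.3, 20.5 and 27.0 RPKM in OIR, a ratio of 1.39 (log2 fold change 0.45 ± 0.0907 SE, limma adjusted p 0.00953). Tap1 was at 0.966, 0.932 and 1.12 RPKM in Control and at 1.52, 1.44 and 2.20 RPKM in OIR, a ratio of 1.71 (limma adjusted p 0.0256). Of its Control values only that of Control 3 reached the minimum for testing. Tap2 was at 2.56, 2.75 and 2.10 RPKM in Control and at 4.16, 3.13 and 3.23 RPKM in OIR, a ratio of 1.42 (limma adjusted p 0.0377). None of these 3 genes overlapped between the groups. Gene models on the opposite strand cover 24.9% of the exon bases of Tapbp in GENCODE M21, 19.1% of those of H2-Q4 and 14.7% of those of Psmb8. For Tap2 such models cover 14.1% and 4.36%, for H2-T22 29.4%, and for Tap1 the gene Psmb9 covers 3.87%. Without strand the reads of such genes cannot be told apart. The call of Tapbp held without each library in turn, while that of Tap1 ended without Control 1, Control 2, OIR 1 or OIR 3, at adjusted p of 0.0842, 0.0756, 0.0573 and 0.0917. That of Tap2 ended without Control 1, Control 3, OIR 1 or OIR 3, at 0.0896, 0.102, 0.161 and 0.0594.

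**Figure D2:**
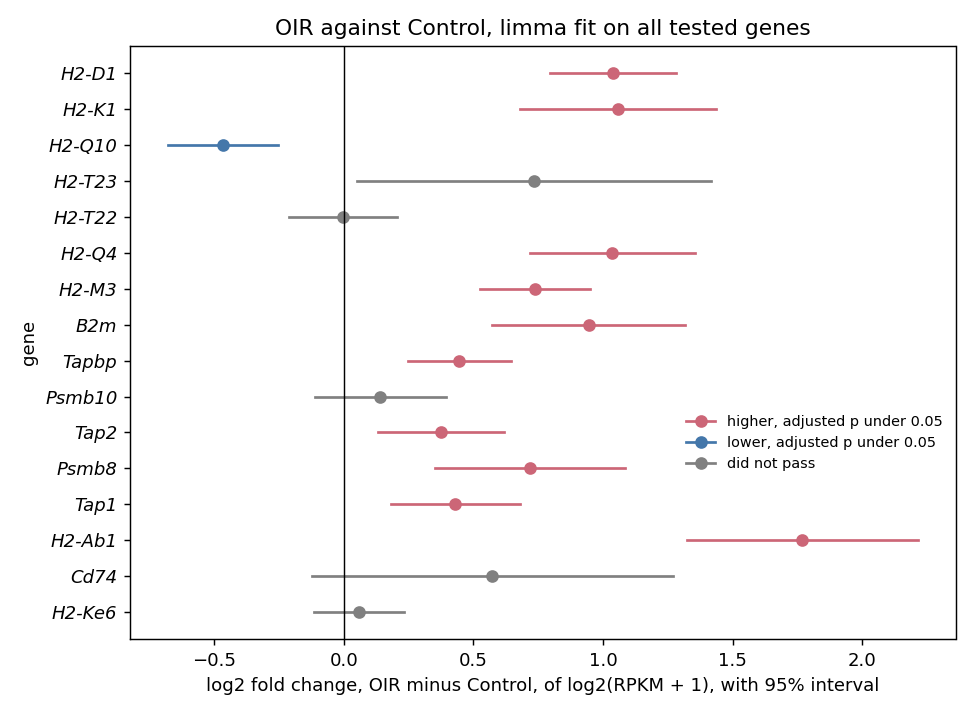
Log2 fold change of OIR minus Control on the log2(RPKM + 1) scale for the 16 tested members, with 95% intervals from the limma fit and red for higher, blue for lower and grey for not passed. H2-Ab1 lies furthest to the right at 1.77, H2-Q10 alone lies below 0 with its whole interval, and H2-T22 is centred on 0.

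The 3 interferon-inducible proteasome subunits, which cut peptides for class I, gave 1 call. Psmb8, which replaces Psmb5 in the immunoproteasome, was at 1.23, 1.37 and 1.95 RPKM in Control and at 2.43, 2.88 and 4.19 RPKM in OIR, a ratio of 2.09 (log2 fold change 0.72 ± 0.162 SE, limma adjusted p 0.0185). Leaving out Control 1 ended its call, at an adjusted p of 0.0747, and leaving out Control 2 did so at 0.0696. Psmb9, which replaces Psmb6, was below the minimum for testing, at 0.751, 0.413 and 0.885 RPKM in Control and at 1.56, 1.06 and 0.948 RPKM in OIR. Its lowest OIR value, in OIR 3, was just above the highest Control value. Psmb10, which replaces Psmb7, averaged 6.49 ± 0.605 RPKM in the Control libraries and 7.31 ± 1.26 RPKM in the OIR libraries (SD, n = 3 each) and did not pass (limma adjusted p 0.421), with OIR 2 below every Control library. Without OIR 2 its log2 fold change was 0.27 and the adjusted p 0.0455.

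None of the 7 beta subunit genes of the standard proteasome, Psmb1 to Psmb7, passed the limma test in either direction, against 18.8% of all tested genes. The median log2 fold change of the 7 was -0.01. Psmb7 averaged 100.6 ± 5.61 RPKM in the Control libraries and 90.0 ± 6.41 RPKM in the OIR libraries (limma adjusted p 0.152) and Psmb5 averaged 86.0 ± 6.29 and 77.4 ± 7.41 RPKM (limma adjusted p 0.224; SD, n = 3 each). The 3 inducible subunits together stood at 0.0307 ± 0.00217 times the level of Psmb5, Psmb6 and Psmb7 in Control and at 0.0447 ± 0.00816 times in OIR (SD, n = 3 libraries each). The values were 0.0295, 0.0293 and 0.0332 in Control and 0.0488, 0.0353 and 0.04998 in OIR, so the groups did not overlap in this ratio. The summed level of the 3 inducible subunits alone did overlap, at 7.94 to 10.02 RPKM in Control and 9.79 to 13.15 RPKM in OIR. The standard subunits remained far more abundant in both groups.

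Class II genes were low, and 1 chain stood apart from the rest. H2-Ab1, the beta chain of the I-A molecule, was at 1.37, 1.29 and 1.29 RPKM in Control and at 7.39, 4.76 and 9.19 RPKM in OIR. All OIR values were over 3 times as high as the highest Control value. The ratio of the means was 5.39, and the log2 fold change was 1.77 ± 0.190 (SE, limma adjusted p 0.00190), the highest among the tested members. Between 55 and 61 reads lay behind each Control value and 208 to 417 behind each OIR value.

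H2-Aa, the alpha chain that pairs with the H2-Ab1 product, was below the minimum for testing. It was at 0.429, 0.526 and 0.622 RPKM in Control and at 0.456, 0.266 and 1.49 RPKM in OIR, from 11 to 64 reads per library. OIR 2 lay below every Control library and OIR 3 above them all. With a minimum of 0.1 RPKM and a pseudocount of 0.1 its log2 fold change was 0.15, with a 95% interval from -1.04 to 1.34 (limma adjusted p 0.871). The ratio of H2-Ab1 to H2-Aa was 3.20, 2.45 and 2.08 in Control and 16.2, 17.9 and 6.16 in OIR. The groups did not overlap in this ratio, which was formed after the values were seen and was not tested. H2-Ab1 shares no 50-base stretch with the transcripts of another gene in GENCODE M21, and no exon of another gene overlaps it there.

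H2-Eb1, the beta chain of I-E, was at 0.403, 0.275 and 0.740 RPKM in Control and at 0.681, 0.409 and 0.961 RPKM in OIR, with overlapping groups. C57BL/6 mice lack the I-E alpha chain. Cd74 was at 0.950, 1.03 and 2.04 RPKM in Control and at 2.37, 1.52 and 3.66 RPKM in OIR, a ratio of 1.88 that did not pass (limma adjusted p 0.218), with Control 3 above OIR 2. Without both Control 3 and OIR 2, the 2 libraries with the most lens RNA, the log2 fold change of Cd74 was 0.99 (limma adjusted p 0.00228).

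The peptide-exchange chains were close to the limit of detection. H2-DMb1, part of the H2-M molecule that loads class II, was at 0.0628, 0.399 and 0.175 RPKM in Control and at 0.506, 0.596 and 0.573 RPKM in OIR, from 3 to 28 reads, with no overlap. With the lower minimum and pseudocount its adjusted p was 0.0489 by limma, beside a log2 fold change of 1.22. Its partner H2-DMa was at 0.481, 0.343 and 0.560 RPKM in Control and at 0.631, 0.643 and 0.531 RPKM in OIR, with overlapping groups, and 10.4% of its exon bases overlap Brd2 on the opposite strand. H2-Ob, a chain of the inhibitor H2-O, had 1, 2 and 2 reads in Control and 10, 5 and 13 in OIR. H2-Oa had 1 to 5 reads in each library, H2-DMb2 1 to 4 and H2-Eb2 0 to 2.

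**Figure D3:**
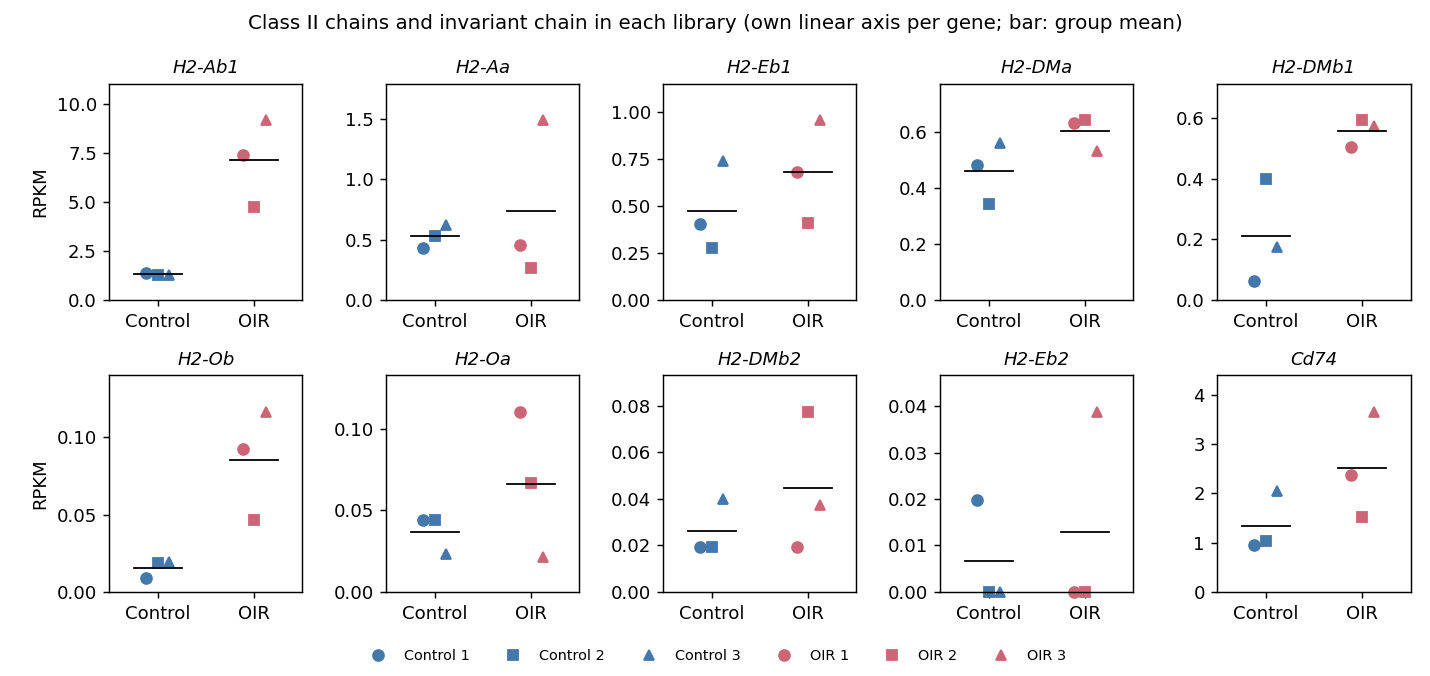
RPKM of the 9 class II chain genes and Cd74 in each library, with a bar at the group mean and a separate linear axis from 0 for each gene. H2-Ab1, H2-DMb1 and H2-Ob have all OIR points above all Control points, and H2-Aa is high in OIR 3 alone.

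Class I stood above class II in summed level in every library. The 9 class II chains summed to 2.84, 2.91 and 3.47 RPKM in Control and to 9.89, 6.87 and 12.96 RPKM in OIR, a ratio of 3.22 beside 1.95 for class I. Without H2-Ab1 the class II ratio was 1.59, and without H2-K1 and H2-D1 the class I ratio was 1.42. H2-Ab1 made up 43.3% ± 5.61 of the class II sum in Control and 71.7% ± 2.79 in OIR (SD, n = 3 libraries each). Class I exceeded class II 15.9-fold ± 1.30 in Control and 9.83-fold ± 1.44 in OIR. In class I, 4 of 7 tested genes were called higher, against 11.6% of all tested genes, and 1 lower, against 7.22%. One of the 4, H2-M3, passed the minimum through its OIR libraries alone. Of the class II chains only H2-Ab1 could be tested. Whether the classes differed in their change was not tested.

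The coactivators were barely expressed. Ciita had 1 to 5 reads in each library. Nlrc5 was at 0.0340, 0.0545 and 0.689 RPKM in Control and at 0.157, 0.142 and 0.163 RPKM in OIR. The OIR libraries lay close together, above Control 1 and Control 2 and below Control 3, so the groups overlapped. H2-T24 had the same order, at 0.0246, 0.0742 and 0.669 RPKM in Control and 0.186, 0.200 and 0.241 RPKM in OIR. Control 3 is the library with 6.29% lens reads, and whether lens tissue had a part in these values was not tested. Of the 35 members with reads, 21 had their highest Control value in Control 3. The share over all genes was not counted, so nothing particular to the members is read from this number. H2-Ke6 averaged 30.8 ± 3.10 RPKM in the Control libraries and 32.1 ± 1.45 RPKM in the OIR libraries (SD, n = 3 each) and did not pass (limma adjusted p 0.636). In GENCODE M21 it shares 86.4% of its exon bases, on the same strand, and 70.5% of its 50-base stretches with Gm20427, so its value is uncertain.

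**Figure D4:**
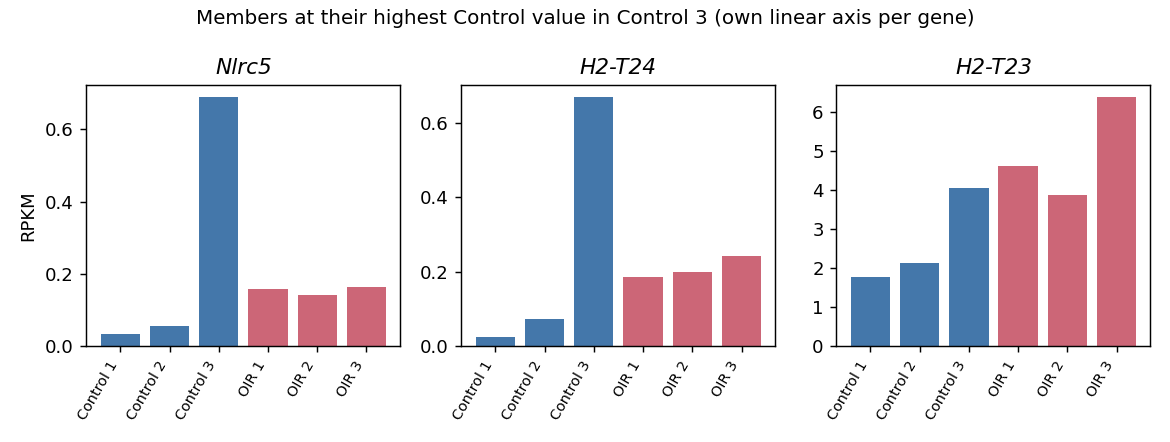
Bars from 0 give the RPKM of Nlrc5, H2-T24 and H2-T23 in each library, with a separate linear axis per gene. Control 3 is the highest library for Nlrc5, at 0.689 RPKM, and for H2-T24, at 0.669 RPKM, and its H2-T23 value of 4.05 RPKM exceeds that of OIR 2.

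Among the 10 members called higher, OIR 3 had the highest value in 9 and OIR 1 in 1, Tap2, while OIR 2 was the lowest OIR library in 7. OIR 1 was the lowest in the other 3, H2-M3, H2-Q4 and Psmb8. This order was not counted over all genes, so nothing particular to the members is read from it. OIR 2 is also the OIR library with the most lens reads, at 0.551%. Whether lens tissue had a part in the order was not tested.

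Of 11 other class I pathway genes, all tested, Sec61a1, a subunit of the channel through which chains enter the endoplasmic reticulum, was higher, with 29.0 ± 0.137 RPKM for Control and 35.7 ± 2.37 RPKM for OIR (limma adjusted p 0.0152). The peptide trimmer Erap1 was also higher, at 2.15 ± 0.243 and 2.84 ± 0.178 RPKM (limma adjusted p 0.0457; SD, n = 3 each), and 9 did not pass. Among the latter, Canx averaged 90.5 ± 4.55 RPKM in the Control libraries and 81.0 ± 2.43 RPKM in the OIR libraries and Psme2 averaged 12.6 ± 0.124 and 14.49 ± 1.39 RPKM. The list median was 0.07. As 11.6% of all tested genes were higher and 7.22% lower, nothing particular to this list is read from its 2 calls.

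Of 12 listed class II pathway genes 9 were tested, and the 3 lysosomal proteases Ctss, Ctsz and Ctsd were higher. Ctss, which cuts the invariant chain, rose from 10.9 ± 0.497 to 23.5 ± 3.47 RPKM (limma adjusted p 0.000260). Ctsz rose from 22.7 ± 1.77 to 37.7 ± 4.52 RPKM and Ctsd from 228.0 ± 1.72 to 344.4 ± 36.0 RPKM (limma adjusted p 0.00117 and 0.00153; SD, n = 3 each). Ctss is also on the microglia list used here. Lgmn averaged 123.1 ± 7.52 and 140.7 ± 4.62 RPKM and did not pass (limma adjusted p 0.0739). The list median was 0.33. Of all tested genes, 11.6% were higher and 7.22% lower.

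Of 17 tested transcription factors of MHC promoters and interferon signalling, 4 were higher and 0 lower, against 11.6% and 7.22% of all tested genes. The list median was 0.15. One of the 4, Irf8, passed the minimum through its OIR libraries alone, like H2-M3. Irf8, a factor of myeloid cells, averaged 0.627 ± 0.159 RPKM in the Control libraries and 1.70 ± 0.462 RPKM in the OIR libraries, and Rela, an NF-kappaB subunit, averaged 8.30 ± 0.727 and 12.3 ± 1.58 RPKM (limma adjusted p 0.00661 and 0.00703; SD, n = 3 each). Irf1, which binds the interferon core of class I promoters, averaged 1.60 ± 0.203 and 2.53 ± 0.535 RPKM, and Irf9 averaged 4.34 ± 0.811 and 7.28 ± 1.63 RPKM (limma adjusted p 0.0282 and 0.0377; SD, n = 3 each). No member of the RFX or NF-Y complexes, which bind the X and Y boxes, was among the calls. The interferon genes Ifng and Ifnb1 were at 0 in all 6 libraries. Of 5 tested interferon receptor genes none passed with limma, and Ifngr1, at 15.7 ± 1.79 and 19.4 ± 1.87 RPKM, and Ifnar2, at 1.35 ± 0.0952 and 1.79 ± 0.0562 RPKM, came closest (limma adjusted p 0.0559 and 0.0601; SD, n = 3 each).

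Of 5 tested class I-like genes outside the H2 region, Fcgrt, the antibody receptor chain that also pairs with B2m, was higher, with 3.91 ± 0.656 RPKM for Control and 5.64 ± 0.676 RPKM for OIR (limma adjusted p 0.0230). The iron regulator Hfe averaged 2.39 ± 0.416 and 3.19 ± 0.0620 RPKM (limma adjusted p 0.0462; SD, n = 3 each), and Cd1d1, Mr1 and Azgp1 did not pass. The share of all tested genes called higher was 11.6%. Among 14 listed genes of receptors that read MHC, only Lag3 could be tested, at 1.96 ± 0.152 and 2.39 ± 0.319 RPKM (limma adjusted p 0.182; SD, n = 3 each). The 14 genes summed to 2.26 to 2.65 RPKM in Control and 3.41 to 4.59 RPKM in OIR, with Lag3 the largest part. The sum was not tested.

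Markers of several retinal cell types also differed between the groups. The counts below stand against 11.6% of all tested genes called higher and 7.22% called lower. Of 18 microglia and macrophage markers 16 were tested and 14 were higher, 0 lower. For Itgam, 1 of the 14, Control 3 was the only Control library that reached the minimum for testing. None of the 18 was at 0 in every library. Their summed level was 64.9 to 72.3 RPKM in Control and 153.1 to 207.7 RPKM in OIR, a ratio of 2.74, and OIR 2 was the lowest OIR library here too. The complement gene C1qa averaged 5.55 ± 0.171 RPKM in the Control libraries and 20.7 ± 2.69 RPKM in the OIR libraries, while P2ry12 and Tmem119, which mark resting microglia, did not pass (limma adjusted p 0.173 and 0.233). Of 11 endothelial markers, all tested, 9 were higher and 0 lower, and the sum was 63.2 to 70.2 RPKM in Control and 109.7 to 121.0 RPKM in OIR, a ratio of 1.71. Of 7 pericyte markers 6 were tested and 5 were higher, 1 of them (Notch3) through its OIR libraries alone, and the sum was 329.9 to 391.3 RPKM in Control and 402.5 to 474.4 RPKM in OIR. Of 7 Muller glia markers, all tested, 3 were higher and 4 lower, and the sum was 1867 to 2165 RPKM in Control and 1738 to 1980.4 RPKM in OIR, with overlap. None of the endothelial, pericyte or Muller glia markers was at 0 in every library. The part of any of these cell types in the MHC values was not tested.

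Lymphocyte and dendritic cell markers were near 0. The 8 dendritic cell markers summed to 1.38 to 1.56 RPKM in Control and 1.51 to 1.62 RPKM in OIR, with Cd209a and Ccr7 at 0 throughout and most of the sum from Zbtb46. The 5 B cell markers summed to 0.196 to 0.335 RPKM in Control and 0.464 to 0.667 RPKM in OIR, and 0 of them were testable. The 7 listed T and natural killer cell markers summed to 0.165 to 0.610 RPKM in Control and 0.564 to 1.152 RPKM in OIR, mostly from Cd8a, with Cd3d and Ncr1 at 0 in all libraries.

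**Figure D5:**
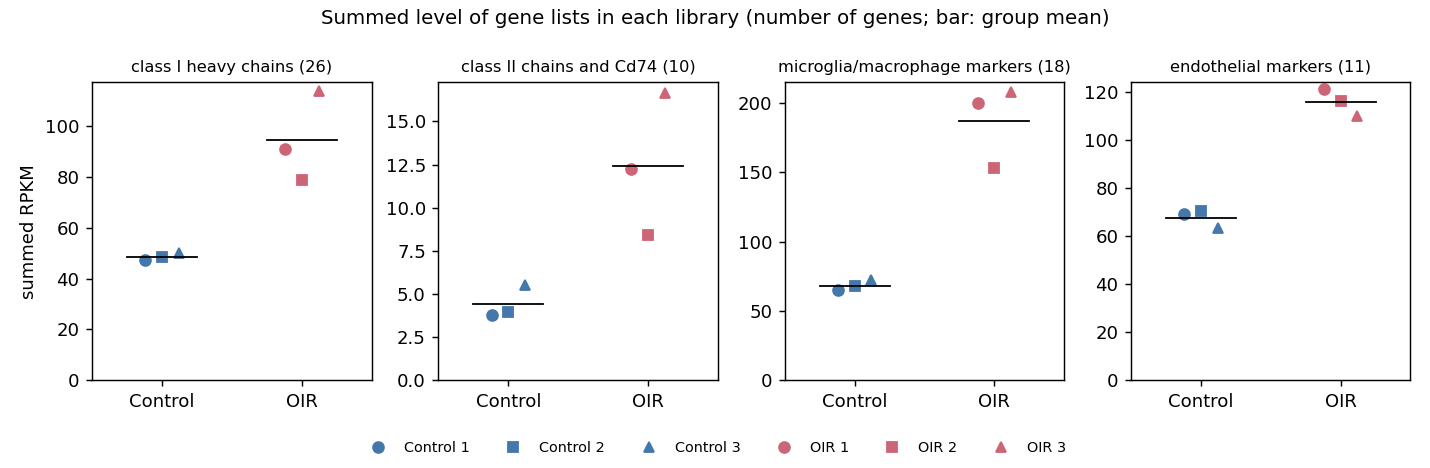
Summed RPKM in each library of the 26 class I heavy chain genes, the 9 class II chains with Cd74, the 18 microglia and macrophage markers and the 11 endothelial markers, with a bar at the group mean and a linear axis from 0. All OIR points lie above all Control points in each panel, and OIR 2 is the lowest OIR library in the first 3 panels.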

How the data were processed

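The authors deposited RPKM values, 1 for each symbol in each library, and did not pool libraries. The counting program is not given in the sources used here, nor is the build or the treatment of read pairs and shared reads. The submitters' processing notes name 2 aligners, Bowtie2 2.0.6 and TopHat2 2.0.12. Per the labels' protocols the libraries would be those of another species, so strand is unknown and genes that overlap cannot be told apart. Read numbers were recovered from the steps of the RPKM values. The lengths of GENCODE M21 transcripts set the depth through 119 genes, and 17952 of 17953 genes above 0 came out as whole reads within 0.02 of a read.

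The test was limma 3.58.1 in R 4.3.3 (trend and robust options, two-sided, Benjamini-Hochberg) on log2(RPKM + 1), with group as the only term. It called 1407 genes higher and 875 lower of 12112. It was tested on simulated data. Ratios, sums and percentages are of the plain values. The members, lists and tests were chosen with earlier results of these data known. Every member is named or counted, and from each list of other pathway genes the tested genes with the smallest adjusted p are named, up to 4, or 2 where none passed. Marker lists are given by counts and sums, and the marker genes named from them were chosen after their values were seen. Alternatives were another pseudocount, lower minimums, median-of-ratios scaling, limma-voom on the recovered reads, the replicate number as a block, and libraries left out.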

Additional observations from a re-analysis of the deposited data

How the results depend on the processing

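With median-of-ratios scaling or a pseudocount of 0.1, each of the 16 tested members kept its direction and its side of the threshold, and scaling moved the median log2 fold change of all genes from 0.03 to -0.01. That scaling made higher genes 49.4% of all calls in place of 61.7%, with 1313 genes lower. With no minimum 529 genes were lower, and 3 processing, loading and regulator genes were higher in place of 5. Without both lens-rich libraries 1943 genes were lower, and 2 class II genes, H2-Ab1 and Cd74, were higher in place of 1; with the minimum of 0.1 there were also 2, H2-Ab1 and H2-DMb1. H2-T22 changed sign, to 0.03 without Control 2, 0.0479 without Control 3, 0.01 without OIR 2, 0.0046 without OIR 3 and 0.0628 without both lens-rich libraries, and ranged from -0.0873 to 0.0479 over the 6 libraries left out in turn.

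Leaving out 1 library in turn gave 513 to 1754 genes higher and 212 to 1293 lower. Class I genes called higher numbered 4 to 5 and lower 0 to 1 (0 without OIR 1), class II genes higher 1 to 1, and processing, loading and regulator genes higher 2 to 6 (2 without Control 1 or OIR 1). The ratio of the summed levels ran from 1.75 to 2.11 for class I, from 2.34 to 3.27 for class II with Cd74, and from 1.37 to 1.61 for the inducible over the standard proteasome.

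Correlations of deviations from the group means between same-numbered libraries were 0.222, -0.440 and -0.414. The highest correlation was 0.493, between the lens-rich libraries Control 3 and OIR 2. Such deviations sum to 0 within each group of 3, so these values cannot show whether the replicate numbers pair the libraries. With the replicate block 1222 genes were higher and 809 lower, 2 class II genes were higher, Cd74 at a limma adjusted p of 0.00750 and H2-Ab1, and H2-T23 passed at 0.00190. It ended no call of a member. limma-voom also called H2-T23 higher, at 0.0442.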
